A study of Danio rerio with 12 samples.

Results

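The core spliceosome genes described here are the 46 genes of the deposited count table whose symbols begin with sf3a, sf3b, snrp, u2af, prpf followed by a digit, or lsm followed by a digit. They were chosen by name alone, out of 15265 genes in the table. Of the 46, 42 had enough counts to be tested, among 11866 genes tested in all. The other 4 (snrpd2, snrpd3, prpf4 and prpf38a) were listed close to 0 in all libraries. The symbols sf3b1, lsm2 and lsm3 have no row in the table and so are not analysed here.

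The samples were whole zebrafish embryos at 28 hours post fertilisation (hpf). One genotype was wild-type and the other was homozygous for a loss of miR-34a (miR-34a-/-, called mutant below), a microRNA gene that p53 is known to activate in vertebrates. From 24 hpf, for 4 h, embryos of each genotype were exposed either to 0.005% DMSO, the solvent control, or to 1 µM camptothecin (CPT), a topoisomerase I poison that breaks DNA and stalls RNA polymerase II. Each of the 4 groups held 3 libraries of polyadenylated RNA, each from 30 to 50 pooled embryos. The labels do not give the DMSO content of the CPT groups or say that replicates were separate clutches, so a matched solvent is not shown, and the spread behind every p-value is that between pools of embryos and may be technical in part. In pooled whole embryos, fewer cells of a type and less RNA per cell cannot be told apart.

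The spliceosome removes introns from pre-mRNA. It is built anew on each intron from the U1, U2, U4, U5 and U6 small nuclear ribonucleoproteins (snRNPs), each a small RNA with a ring of Sm or LSm proteins and proteins of its own. U1 marks the 5′ splice site, U2AF and the SF3a and SF3b proteins of U2 mark the 3′ end and the branch point, and the U4/U6.U5 tri-snRNP, with Prp-named proteins, brings in the catalytic core. Every cell with introns to remove uses this machinery, and loss of core splicing proteins is known to be lethal to zebrafish embryos.

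Library totals ran from 13.5 to 27.9 M counts. The row of the mutated gene, listed as mir34, gave 0, 1 and 0 counts with DMSO and 9, 9 and 32 counts with CPT in wild-type embryos, and 0 in each of the 6 mutant libraries. In composition, libraries of wild-type CPT embryos stood apart. Their TMM scaling factors were 0.835 to 0.962, against 1.01 to 1.09 in the other 9. Their 10 most abundant genes took 10.7% to 12.3% of the counts, against 8.79% to 9.58%. Wild-type CPT library 3 lay nearest to the other 9 on both measures, at 0.962 and 10.7%. Levels are given as CPM, the count of a gene divided by the TMM-scaled library total in M. They are not corrected for transcript length, so they are compared between samples and not between genes. Together the 46 genes took 0.769%, 0.739% and 0.734% of the counts with DMSO and 0.646%, 0.671% and 0.757% with CPT in wild-type embryos. In mutants they took 0.782%, 0.831% and 0.820% with DMSO and 0.800%, 0.825% and 0.817% with CPT. In the tested members, the lowest library count had a median of 1436.5 over members, and 3 members fell under 100 counts in some library. Marker genes of several of the embryo's tissues moved with the treatment. Unlike the other levels, the marker sums are counts per M of the plain library total, without TMM factors. With TMM factors the wild-type CPT sums would be higher relative to the DMSO sums. The marker overlaps below were not compared on that scale. The summed level of 5 neural markers was 824 to 893 CPM with DMSO and 504 to 605 with CPT in wild-type embryos, and 927 to 979 and 483 to 554 in mutants. The sum of 4 endothelial markers was 88.0 to 89.0 and 13.6 to 19.1 CPM in wild-type embryos, and 93.3 to 107 and 21.9 to 27.5 in mutants. Both sums were lower in every CPT library than in every DMSO library of the same genotype. Sums of 4 lens and retina markers (182 to 210.1 and 98.8 to 131 CPM in wild-type embryos, 160.3 to 195 and 96.5 to 107 in mutants) and of 4 leukocyte markers (87.6 to 89.2 and 50.2 to 67.8, 93.1 to 123 and 57.3 to 63.4) did the same. Heart markers did so in wild-type embryos (119 to 126 and 82.8 to 95.2) and overlapped in mutants. The sum of 3 notochord and cartilage markers was lower without overlap in both (59.8 to 65.0 and 47.7 to 59.8, 67.2 to 70.4 and 61.0 to 63.7). The wild-type notochord ranges nearly touched. Their separation depends on leaving out the TMM factors, which lower the DMSO sums and raise the CPT sums there. Whether the mutant notochord separation, or any other separation of marker sums given here, holds with TMM factors was not tested. The sum of 4 epidermis markers went in opposite directions, with 2590.1 to 2999.8 CPM with DMSO and 3059 to 5039 with CPT in wild-type embryos, and 2728 to 3652 and 2456 to 2535 in mutants, without overlap in either. The erythroid sum and that of the hatching gland and yolk syncytial layer overlapped between treatments in both genotypes. The sum of 5 muscle markers overlapped between treatments in wild-type embryos and was 10624 to 13195 with DMSO and 7220 to 8592 with CPT in mutants. Of 42 tissue markers in the table, gata1a alone was listed at 0. The part of tissue composition in the results below was not tested.

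CPT changed spliceosome genes in both directions, with small folds. In wild-type embryos, 14 of the 42 tested members (33.3%) were called higher and 6 (14.3%) lower at an adjusted p under 0.05 (edgeR quasi-likelihood test, Benjamini-Hochberg over all tested genes). Over all 11866 genes, 29.1% were called higher and 31.8% lower, so that 60.8% were called in either direction, against 47.6% of the members. In mutants, 16 members (38.1%) were higher and 10 (23.8%) lower, against 28.5% and 31.7% of all genes. Called members made up 61.9% there, and all called genes 60.2%. These shares are given side by side and were not tested against each other. The treatments did not overlap in 18 members that were higher and 7 that were lower in wild-type embryos, against 30.6% and 33.7% of all genes. In mutants these were 17 and 9 members, against 31.8% and 34.4%. The median log2 fold change of the members was 0.16 in wild-type embryos and 0.18 in mutants, and that of all genes was -0.00 and -0.01.

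The counts of rises and falls in wild-type embryos depend on how the libraries are scaled, for all genes as for the members. When libraries were scaled by their totals and not by TMM factors, the median of all genes shifted to -0.23 and 5 members were called higher and 9 lower, so that rises made up 35.7% of the called members in place of 70.0%. Over all genes, rises made up 29.7% of the calls under library totals in place of 47.8%. Relative to the median of all genes, the members' median was 0.165 higher under TMM factors and also 0.165 higher under library totals. No member called under TMM factors changed sign, but 15 of the 22 uncalled wild-type members did. The smallest called wild-type rise, 0.25 for snrpd3l, was larger than the shift of the median, so called rises had little room to change sign. The 5 rises that passed under both scalings were snrpa, snrpc, snrpe, sf3b4 and sf3b5. The 9 falls were the 6 called under TMM factors together with sf3b3 (-0.38, adjusted p = 0.00204), prpf31 (-0.30, 0.0178) and prpf4bb (-0.41, 0.000865). In mutants the median of all genes shifted only to -0.06, and 15 members were called higher and 10 lower.

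**Figure D1:**
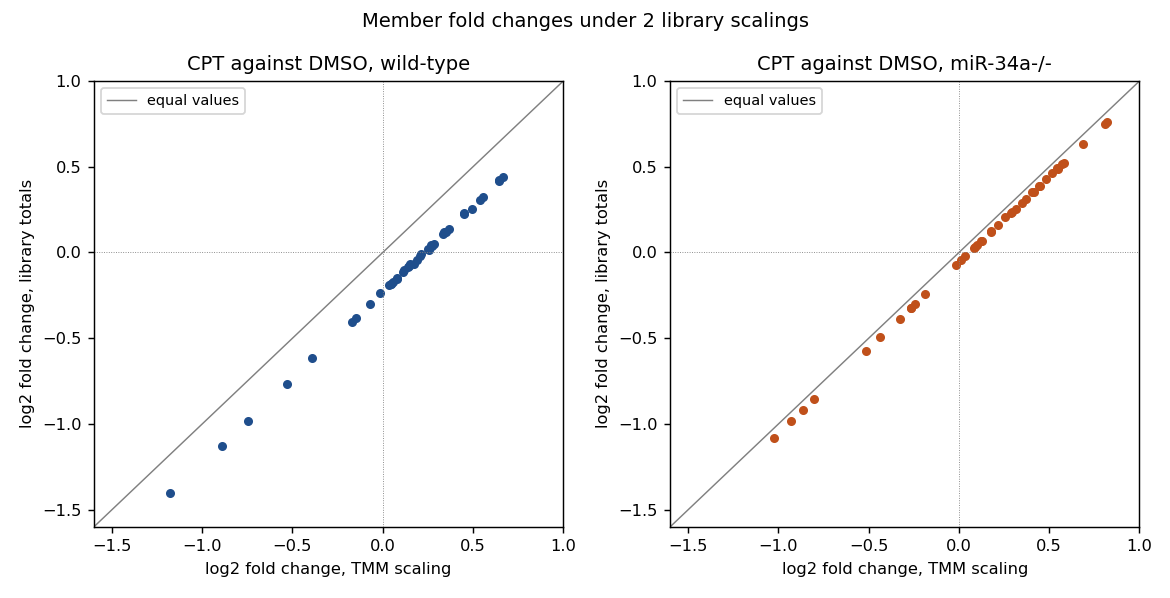
Each point is 1 of 41 of the 42 tested spliceosome genes, with its log2 fold change (CPT against DMSO) under TMM scaling on the x axis and under library totals on the y axis, for wild-type embryos on the left and mutants on the right. The wild-type points lie below the line of equal values by about the shift of the median of all genes to -0.23, and the mutant points lie close to the line.

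Few members changed by a large factor. In wild-type embryos 2 members passed 2-fold, lsm14b among them (4.76% of the members, against 24.2% of all genes), and in mutants prpf6 did (2.38%, against 25%). The median absolute log2 fold change was 0.26 in wild-type embryos and 0.36 in mutants for the members, and 0.53 and 0.54 for all genes. The standard error was also smaller for the members, with a median of 0.112 against 0.155 for all genes in wild-type embryos. By group, the median coefficient of variation between replicates was 6.37% to 9.95% for the members and 10.1% to 13.8% for all tested genes. These sizes and spreads were not compared with those of genes at similar counts.

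The 2 CPT comparisons share no library, and their calls never had opposite signs among the members. In both genotypes 11 members were called higher (against 22.0% of all genes) and 6 lower (against 26.4%). The 11 were snrpa, snrpb2, snrpd3l, snrpe, snrpg, sf3b4, sf3b5, sf3b6, u2af2a, prpf8 and lsm8, and the 6 included prpf6, prpf38b, sf3b2, lsm12b and lsm14b. Calls in wild-type embryos alone came to 3 higher, and in mutants alone to 5 higher and 4 lower, and 13 members were called in neither. Under TMM factors the fold changes had the same sign in 35 of 42 members. That count depends on the scaling, since 15 uncalled wild-type members and 2 uncalled mutant members changed sign under library totals. The share of all genes with the same sign was not computed. Across the 42 genes, whose folds come from 1 fit with shared scaling factors, Spearman's rho between genotypes was 0.695, and across all tested genes it was 0.878.

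**Figure D2:**
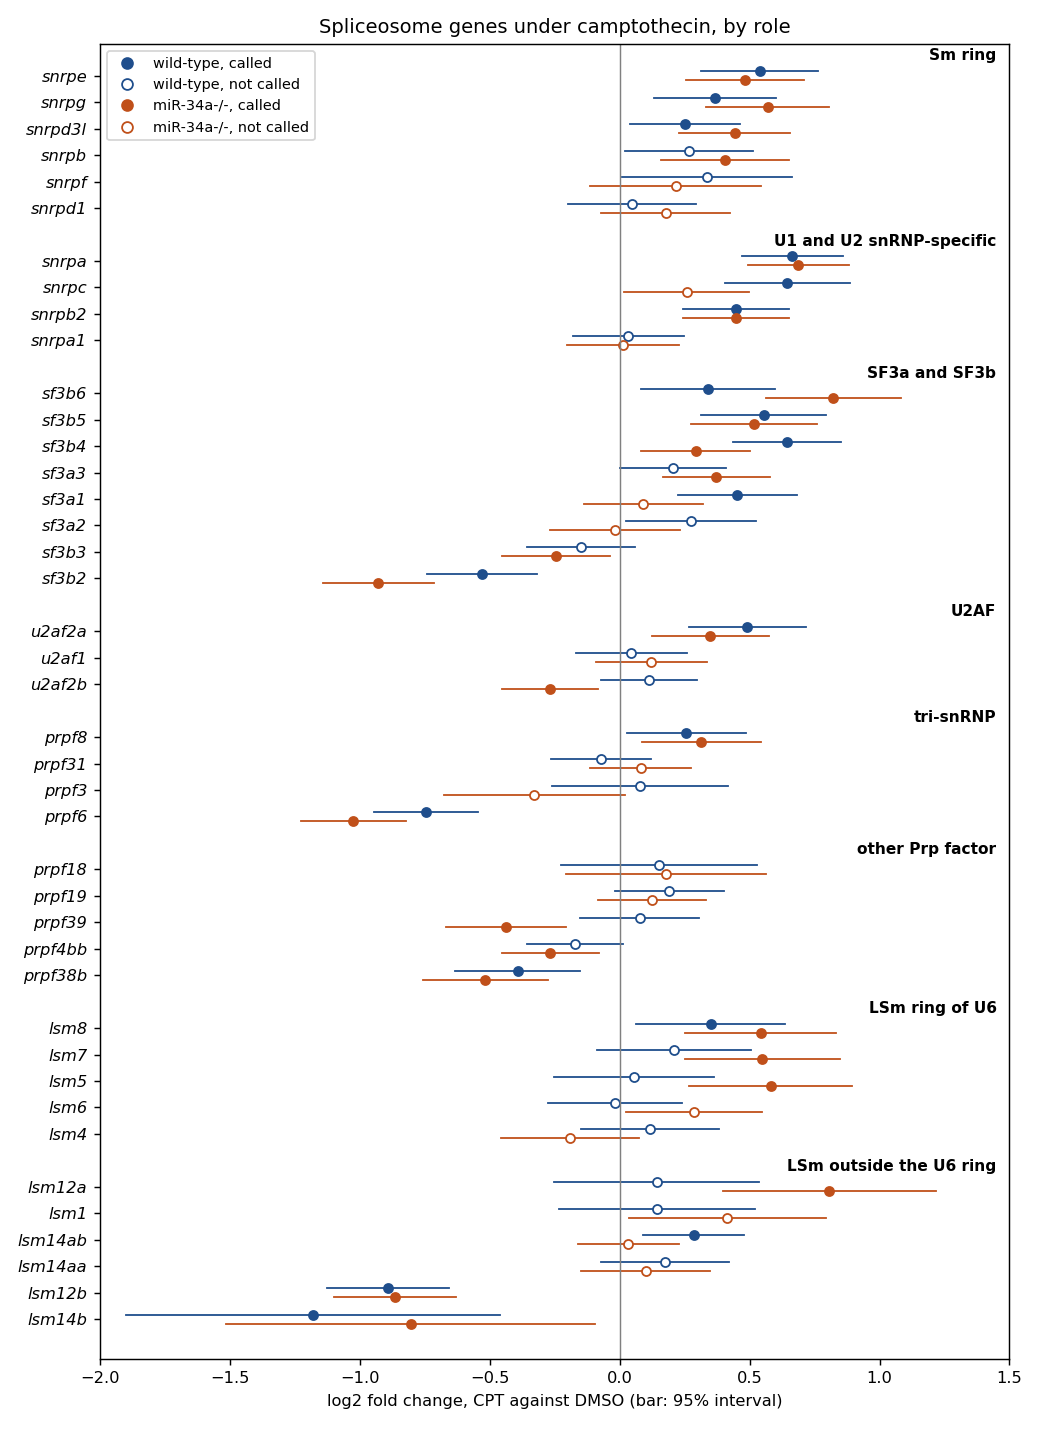
Log2 fold change of 41 of the 42 tested spliceosome genes, CPT against DMSO, in wild-type (blue) and mutant (orange) embryos, with its 95% interval and grouped by role; filled points were called at an adjusted p under 0.05. The Sm ring and the U1 and U2 proteins lie at or above 0, and the largest falls among the genes plotted are prpf6, sf3b2, lsm12b and lsm14b; under library totals the wild-type median of all genes shifts to -0.23.

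The counts by role below are small, and each reads against the shares of all genes called in that contrast, 29.1% higher and 31.8% lower in wild-type embryos and 28.5% and 31.7% in mutants. No role was tested against all genes.

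The Sm proteins form the ring that clasps U1, U2, U4 and U5 RNA. Of 6 tested ring genes, 3 were called higher in wild-type embryos (median log2 fold change 0.30) and 4 in mutants (median 0.42), against 29.1% and 28.5% of all genes, and none was lower under TMM factors or library totals. The gene snrpe, for SmE, measured 117, 118 and 117 CPM with DMSO and 173, 175 and 163 CPM with CPT in wild-type embryos. In mutants it measured 89.5, 128 and 105 CPM with DMSO and 147, 161 and 143 CPM with CPT. The CPT libraries lay above the DMSO libraries of the same genotype without overlap, and the log2 fold change was 0.54 (SE 0.109, adjusted p = 0.000246) in wild-type embryos and 0.48 (SE 0.109, adjusted p = 0.000727) in mutants. For snrpg (SmG) the wild-type libraries gave 150.0, 143 and 177 CPM with DMSO and 212, 192 and 202 CPM with CPT. The mutant libraries gave 122, 154 and 144 CPM with DMSO and 189.5, 236 and 199 CPM with CPT. Again all CPT libraries were above all DMSO libraries of their genotype, with a log2 fold change of 0.37 (SE 0.113, adjusted p = 0.00801) and 0.57 (SE 0.113, adjusted p = 0.000211). The wild-type call of snrpg was lost under library totals (0.14, adjusted p = 0.303).

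The gene snrpb, which encodes SmB, held the most counts of all members. It measured 1081, 942 and 1078 CPM with DMSO and 1169, 1190.4 and 1374 CPM with CPT in wild-type embryos. In mutants snrpb measured 969, 1239.6 and 1061 CPM with DMSO and 1337, 1503 and 1494 CPM with CPT. The groups did not overlap in either genotype, but only the mutant difference passed the test, at 0.41 (SE 0.118, adjusted p = 0.00558) against 0.27 (SE 0.118, adjusted p = 0.0555) in wild-type embryos. In contrast, snrpd1 (SmD1) overlapped between treatments in both genotypes. It measured 137, 153 and 171 CPM with DMSO and 169, 154 and 155 CPM with CPT in wild-type embryos. In mutants snrpd1 measured 108, 155 and 127 CPM with DMSO and 134, 155 and 152 CPM with CPT. Its log2 fold change was 0.05 (SE 0.118, adjusted p = 0.739) and 0.18 (SE 0.119, adjusted p = 0.206). The row snrpd3l, named as a copy of snrpd3, was called higher in both genotypes, at 0.25 (SE 0.101, adjusted p = 0.0368) and 0.44 (SE 0.102, adjusted p = 0.000868). Without wild-type DMSO library 1 or 2 its wild-type call was lost (adjusted p = 0.149 and 0.0551), as it was under library totals (0.868). The row snrpd3 itself held 3 counts in all 12 libraries together and snrpd2 held 10. How reads of near-identical copies were shared out is not given in the sources used here, so the split between snrpd3 and snrpd3l is uncertain. The remaining ring gene, snrpf, was not called (0.34 and 0.21).

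Among proteins specific to U1 and U2, no gene was called lower under TMM factors or library totals. Of 4 tested, 3 were called higher in wild-type embryos and 2 in mutants, with medians of 0.55 and 0.35. The gene snrpa encodes U1-A, which binds a stem-loop of U1 RNA. It measured 168, 167 and 158 CPM with DMSO and 247, 251 and 284 CPM with CPT in wild-type embryos. In mutants it measured 149, 169 and 167 CPM with DMSO and 258, 262 and 259 CPM with CPT. The lowest CPT library was well above the highest DMSO library in each genotype, and the log2 fold change was 0.66 (SE 0.093, adjusted p = 3.76e-06) and 0.69 (SE 0.0932, adjusted p = 2.58e-06). The mean rose from 165 ± 5.67 (SD, n = 3) to 261 ± 20.2 (SD, n = 3) CPM in wild-type embryos.

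The gene snrpc encodes U1-C, which contacts the 5′ splice site. Its wild-type libraries gave 77.8, 66.7 and 75.6 CPM with DMSO and 112, 108 and 124 CPM with CPT, with no overlap. Its mutant libraries gave 74.8, 97.2 and 69.3 CPM with DMSO and 91.4, 94.8 and 103 CPM with CPT, where DMSO library 2 lay inside the CPT range. The log2 fold change was 0.65 (SE 0.115, adjusted p = 6.86e-05) in wild-type embryos and did not pass in mutants, at 0.26 (SE 0.116, adjusted p = 0.0605); the difference between the genotypes was not called either (-0.39, adjusted p = 0.264). Of the U2 pair, snrpb2 (U2-B″) was called higher in both genotypes (0.45 and 0.45), though not in wild-type embryos under library totals (0.22, adjusted p = 0.0951). Its partner snrpa1 (U2-A′) measured 117, 114 and 108 CPM with DMSO and 101, 117 and 129 CPM with CPT in wild-type embryos. In mutants snrpa1 measured 105, 125 and 125 CPM with DMSO and 115, 126 and 119 CPM with CPT. The treatments overlapped in both genotypes, and the 95% interval of its log2 fold change ran from -0.18 to 0.25 in wild-type embryos and from -0.20 to 0.23 in mutants.

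**Figure D3:**
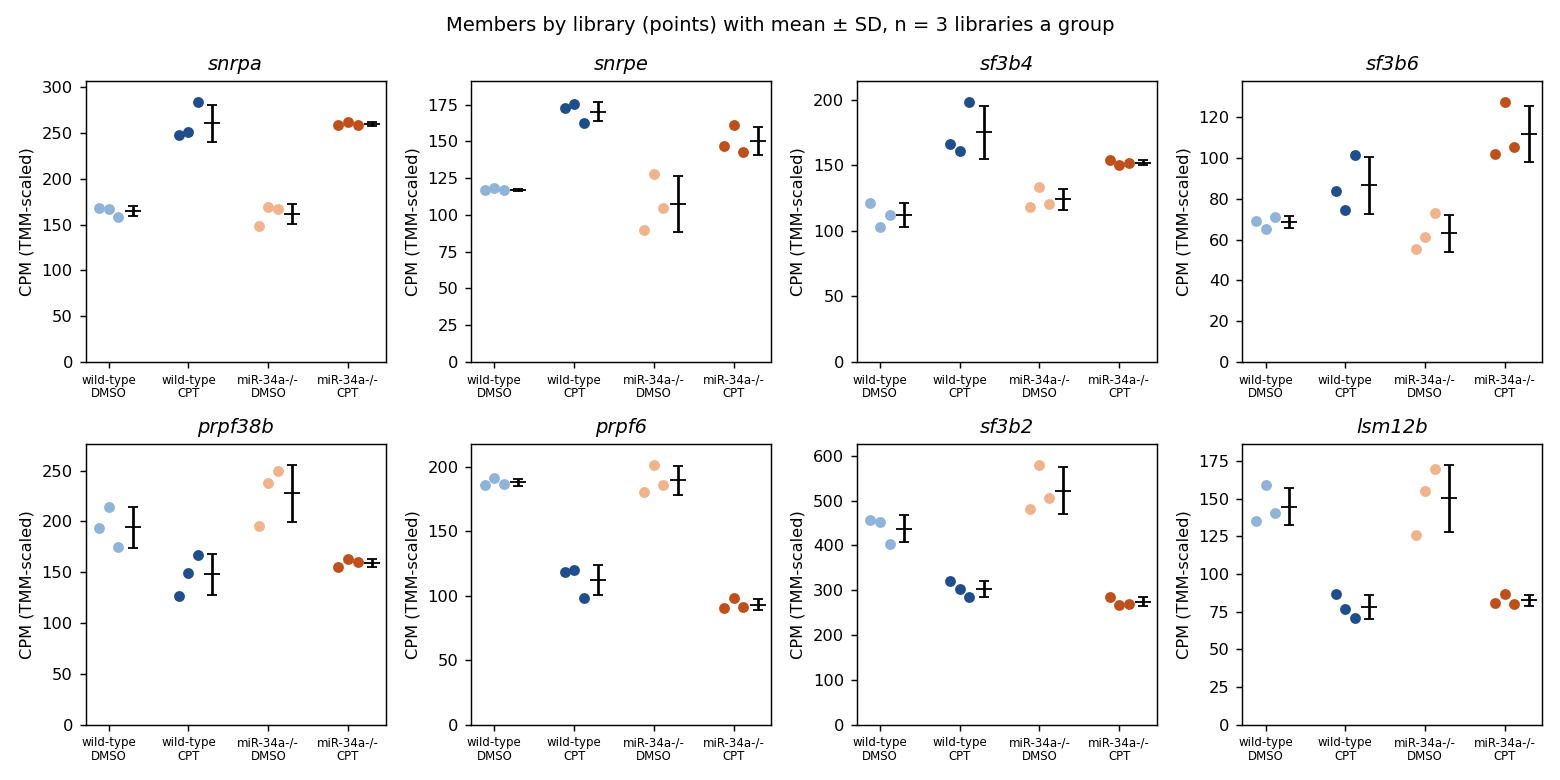
CPM (TMM-scaled, from 0) of 8 spliceosome genes in each library, with the group mean ± SD (n = 3 libraries) beside the points. The top row holds genes called higher with CPT in both genotypes and the bottom row genes called lower in both; the treatments do not overlap within a genotype in any of the 8.

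SF3a and SF3b bind with U2 at the branch point, and their genes moved in opposite directions. Of 8 tested subunits, 4 were higher and 1 lower in wild-type embryos, and 4 were higher and 2 lower in mutants. The genes sf3b4, sf3b5 and sf3b6 were called higher in both genotypes, and sf3b2 was called lower in both. For sf3b4, whose protein sits on the pre-mRNA upstream of the branch point, wild-type libraries gave 121, 103 and 112 CPM with DMSO and 166, 161 and 199 CPM with CPT. Mutant libraries gave 119, 133 and 121 CPM with DMSO and 154, 151 and 152 CPM with CPT. The treatments did not overlap in either genotype, and the log2 fold change was 0.64 (SE 0.1, adjusted p = 1.39e-05) and 0.29 (SE 0.1, adjusted p = 0.0162). The mutant call was lost without mutant DMSO library 1 or 3 (adjusted p = 0.0546 and 0.053) and under library totals (0.0813). The gene sf3b5 measured 62.4, 61.2 and 65.6 CPM with DMSO and 95.7, 88.0 and 94.1 CPM with CPT in wild-type embryos. In mutants sf3b5 measured 47.2, 69.6 and 56.0 CPM with DMSO and 79.9, 89.7 and 78.3 CPM with CPT. Its CPT libraries were all above its DMSO libraries, at 0.55 (SE 0.115, adjusted p = 0.000335) and 0.52 (SE 0.116, adjusted p = 0.000698).

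The gene sf3b6, for the p14 protein that contacts the branch-point adenosine, had the largest mutant rise. It measured 55.2, 61.2 and 73.0 CPM with DMSO and 102, 127 and 105 CPM with CPT in mutants. In wild-type embryos it measured 69.3, 65.2 and 70.9 CPM with DMSO and 83.6, 74.3 and 102 CPM with CPT. The treatments did not overlap, and the log2 fold change was 0.82 (SE 0.125, adjusted p = 1.06e-05) in mutants and 0.34 (SE 0.124, adjusted p = 0.0229) in wild-type embryos, a difference that did not pass (0.48, adjusted p = 0.191). In wild-type embryos the gene no longer passed when DMSO library 2 (0.30, adjusted p = 0.0803) or CPT library 3 (0.25, 0.0821) of that genotype was left out, or under library totals (0.12, 0.484). On leaving out wild-type CPT library 3, the difference between genotypes passed as well (0.61, adjusted p = 0.0377). That setting called 4.21% of all genes for this difference, against 0.160% with all libraries.

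The large subunit sf3b2, which touches U2 and the intron near the branch point, fell in both genotypes. It measured 457, 452 and 403 CPM with DMSO and 321, 303 and 285 CPM with CPT in wild-type embryos. In mutants it measured 481, 580.4 and 505 CPM with DMSO and 286, 268 and 269 CPM with CPT. Every CPT library was below every DMSO library, and the log2 fold change was -0.53 (SE 0.102, adjusted p = 0.000155) and -0.93 (SE 0.103, adjusted p = 1.7e-07). In wild-type embryos the scaffold subunit sf3b3 passed under library totals (-0.38, adjusted p = 0.00204) but not under TMM factors. In mutants it passed under TMM factors, at -0.25 (SE 0.1, adjusted p = 0.0407). That call was lost without wild-type CPT library 1, 2 or 3, mutant DMSO library 1, 2 or 3 or mutant CPT library 2 or 3 (adjusted p = 0.0518 to 0.192), with DESeq2-type size factors (0.0692) and with no filter on low counts (0.0994). Among the SF3a genes, sf3a1 measured 232, 244 and 196 CPM with DMSO and 262, 317 and 341 CPM with CPT in wild-type embryos. In mutants sf3a1 measured 249.6, 264 and 261 CPM with DMSO and 293, 260.0 and 273 CPM with CPT. The wild-type treatments were separate and the mutant ones overlapped, with 0.45 (SE 0.11, adjusted p = 0.00142) and 0.09 (SE 0.11, adjusted p = 0.493). The wild-type call was lost under library totals (0.23, adjusted p = 0.119). The gene sf3a3 was called in mutants (0.37) and not in wild-type embryos (0.20), and sf3a2 in neither (0.27 and -0.02).

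A ratio of counts within a library does not depend on how libraries are scaled. The pair sf3b4 and sf3b2, picked after its values were seen and so given with no test, had an sf3b4 to sf3b2 ratio of 0.265, 0.228 and 0.279 in wild-type DMSO libraries and 0.517, 0.533 and 0.696 with CPT. In mutants the ratio was 0.247, 0.230 and 0.239 with DMSO and 0.540, 0.563 and 0.564 with CPT. The ratio was higher in all 6 CPT libraries than in all 6 DMSO libraries. The pair joins a gene called higher with a gene called lower in both genotypes, so a higher ratio with CPT follows from that choice.

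**Figure D4:**
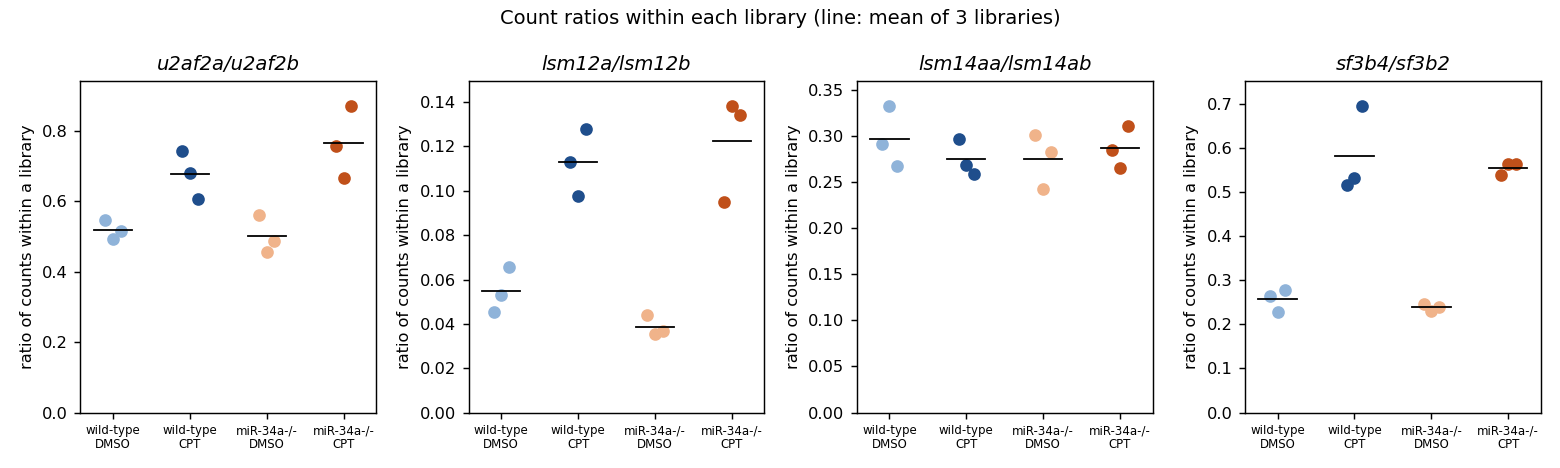
Ratio of the counts of 2 genes within each library (y axis, from 0), by group, with the group mean as a line, for the 3 pairs of paralogs and for sf3b4 over sf3b2. CPT libraries lie above DMSO libraries for u2af2a over u2af2b, lsm12a over lsm12b and sf3b4 over sf3b2, and lsm14aa over lsm14ab overlaps between all 4 groups.

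U2AF recognises the 3′ end of the intron: the small subunit, u2af1, reads the terminal AG and the large subunit, u2af2, the polypyrimidine tract before it. Zebrafish have 2 genes for the large subunit, and they did not move together. The gene u2af2a measured 97.4, 86.2 and 85.1 CPM with DMSO and 131, 132 and 115 CPM with CPT in wild-type embryos. In mutants u2af2a measured 110.0, 98.9 and 98.6 CPM with DMSO and 134, 111 and 146 CPM with CPT. Its CPT libraries were above its DMSO libraries in both genotypes, at 0.49 (SE 0.108, adjusted p = 0.000542) and 0.35 (SE 0.108, adjusted p = 0.00862). The wild-type call missed under library totals (0.26, adjusted p = 0.0557). Its paralog u2af2b measured 178, 175 and 165 CPM with DMSO and 177, 195 and 189 CPM with CPT in wild-type embryos, where the treatments overlapped. In mutants u2af2b measured 196, 217 and 203 CPM with DMSO and 177, 167 and 168 CPM with CPT, with every CPT library lower. The log2 fold change of u2af2b was 0.11 (SE 0.0889, adjusted p = 0.282) and -0.27 (SE 0.0891, adjusted p = 0.0139); the mutant call was lost without mutant DMSO library 2 (adjusted p = 0.0606), mutant CPT library 2 (0.0518) or mutant CPT library 3 (0.0902).

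The ratio of u2af2a to u2af2b counts within a library was 0.546, 0.491 and 0.516 with DMSO and 0.741, 0.679 and 0.607 with CPT in wild-type embryos. It was 0.560, 0.456 and 0.486 in mutant DMSO and 0.757, 0.666 and 0.871 in mutant CPT libraries. The lowest CPT ratio exceeded the highest DMSO ratio over both genotypes. The log2 ratio was 0.49 higher with CPT (two-sided exact permutation test within genotypes over 400 relabelings, p = 0.005, the smallest they can give; 0.0075 adjusted over the 3 pairs of paralogs). This comparison was added after the fold changes were seen, for all 3 pairs of tested members named as a and b copies. The small subunit u2af1 measured 279, 285 and 273 CPM with DMSO and 283, 292 and 289 CPM with CPT in wild-type embryos. In mutants u2af1 measured 217, 275 and 266 CPM with DMSO and 253, 298 and 274 CPM with CPT. The treatments overlapped in both genotypes, and its log2 fold change was 0.05 (SE 0.102, adjusted p = 0.718) and 0.12 (SE 0.103, adjusted p = 0.315).

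The tri-snRNP proteins gave 1 rise and 1 fall in each genotype among 4 tested genes. The gene prpf6 encodes the protein that bridges U5 and U4/U6. It measured 186, 191 and 186 CPM with DMSO and 118, 119.7 and 98.5 CPM with CPT in wild-type embryos. In mutants it measured 181, 202 and 186 CPM with DMSO and 90.3, 98.1 and 91.0 CPM with CPT. All CPT libraries were below all DMSO libraries, and the log2 fold change was -0.75 (SE 0.0959, adjusted p = 1.25e-06) and -1.02 (SE 0.0969, adjusted p = 1.78e-08), the largest fall of a member in mutants. The gene prpf8 encodes the protein at the heart of the catalytic core. Its wild-type libraries gave 701, 673 and 717 CPM with DMSO and 915, 852 and 731 CPM with CPT. Its mutant libraries gave 873, 750.4 and 733 CPM with DMSO and 990.3, 941 and 998 CPM with CPT. The treatments did not overlap within a genotype, and the log2 fold change was 0.26 (SE 0.11, adjusted p = 0.0489) and 0.31 (SE 0.11, adjusted p = 0.018). The wild-type call was lost with a replicate block (adjusted p = 0.0529), under library totals (0.896), with only the groups compared (0.0789) and without any 1 of 9 libraries, namely wild-type DMSO 1, 2 and 3, wild-type CPT 1 and 2, mutant DMSO 2 and 3 and mutant CPT 1 and 2 (0.0559 to 0.131). The mutant call was lost without mutant DMSO library 2 or 3 or mutant CPT library 1 (0.0511 to 0.0819).

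The U4/U6 proteins prpf3 and prpf31 were not called. For prpf31 the wild-type libraries gave 102, 96.9 and 91.8 CPM with DMSO and 85.5, 97.2 and 93.7 CPM with CPT. The mutant libraries of prpf31 gave 98.0, 106 and 103 CPM with DMSO and 109, 115 and 101 CPM with CPT. The treatments overlapped, with log2 fold changes of -0.07 (SE 0.0924, adjusted p = 0.514) and 0.08 (SE 0.0926, adjusted p = 0.468). The low-count gene prpf3 measured 9.05, 9.45 and 9.04 CPM with DMSO and 9.50, 9.57 and 10.01 CPM with CPT in wild-type embryos. In mutants prpf3 measured 9.56, 9.02 and 11.46 CPM with DMSO and 6.64, 10.1 and 7.27 CPM with CPT. It came to 0.08 (SE 0.162, adjusted p = 0.688) and -0.33 (SE 0.168, adjusted p = 0.0968). Their partner prpf4 held 7 counts in all libraries together and was not tested.

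Of 6 tested genes for other Prp-named factors, 2 were called lower in wild-type embryos (33.3%, against 31.8% of all genes; median -0.05) and 4 in mutants (66.7%, against 31.7%; median -0.35). None was called higher under TMM factors or library totals. The gene prpf38b measured 194, 215 and 175 CPM with DMSO and 127, 149 and 167 CPM with CPT in wild-type embryos. In mutants prpf38b measured 195, 238 and 249 CPM with DMSO and 155, 163 and 159.7 CPM with CPT. It was lower with CPT in every library, at -0.39 (SE 0.115, adjusted p = 0.00587) and -0.52 (SE 0.115, adjusted p = 0.000658); the wild-type call was lost without wild-type CPT library 1 (-0.26, 0.0624).

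The gene prpf39, whose yeast counterpart is a U1 protein, measured 442, 384 and 343 CPM with DMSO and 410.5, 408 and 413 CPM with CPT in wild-type embryos. In mutants it measured 459, 579.8 and 515 CPM with DMSO and 368, 380.4 and 400.0 CPM with CPT. The wild-type treatments overlapped and the mutant ones did not, and the log2 fold change was 0.08 (SE 0.11, adjusted p = 0.564) and -0.44 (SE 0.111, adjusted p = 0.00202). Under TMM factors the kinase gene prpf4bb was called lower in mutants only, at -0.27 (SE 0.0895, adjusted p = 0.0141). That call was lost without mutant CPT library 1 (adjusted p = 0.0536). In wild-type embryos prpf4bb came to -0.17, with every CPT library below every DMSO library. Library totals called it lower there too (-0.41, adjusted p = 0.000865). The gene prpf19, for the ubiquitin ligase of the complex that activates the spliceosome, measured 347, 308 and 344 CPM with DMSO and 417, 357 and 367 CPM with CPT in wild-type embryos. In mutants prpf19 measured 336, 355 and 377 CPM with DMSO and 368, 406 and 391 CPM with CPT. Neither difference passed, at 0.19 (SE 0.1, adjusted p = 0.105) and 0.13 (SE 0.1, adjusted p = 0.291). The second-step factor prpf18 was not called in either genotype (0.15 and 0.18). The row prpf38a held 10 counts in all libraries together.

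The LSm ring holds the 3′ end of U6 RNA. Of 5 tested ring genes, 1 was called higher in wild-type embryos (median 0.12) and 3 in mutants (median 0.54), and none was lower under TMM factors or library totals. The gene lsm7 measured 88.9, 87.2 and 120.1 CPM with DMSO and 103, 111 and 129 CPM with CPT in wild-type embryos, where the treatments overlapped. In mutants lsm7 measured 79.1, 79.2 and 90.3 CPM with DMSO and 102, 148 and 114 CPM with CPT, without overlap. Its log2 fold change was 0.21 (SE 0.141, adjusted p = 0.208) and 0.55 (SE 0.142, adjusted p = 0.00271). The gene lsm5 measured 20.7, 24.4 and 32.5 CPM with DMSO and 26.0, 25.5 and 29.1 CPM with CPT in wild-type embryos. In mutants lsm5 measured 19.6, 19.7 and 23.9 CPM with DMSO and 27.9, 36.4 and 30.4 CPM with CPT. Only the mutant treatments were separate, and the log2 fold change was 0.05 (SE 0.148, adjusted p = 0.766) and 0.58 (SE 0.151, adjusted p = 0.00244). For neither gene was the difference between genotypes called (lsm7 0.34, adjusted p = 0.447; lsm5 0.53, adjusted p = 0.242). The gene lsm8, whose protein marks the nuclear ring, was called higher in both genotypes (0.35, adjusted p = 0.0325, and 0.54, adjusted p = 0.00223). Its wild-type call did not hold without DMSO library 1, 2 or 3 or CPT library 2 of that genotype (adjusted p = 0.0551 to 0.107) and under library totals (0.474). The genes lsm4 and lsm6 were not called.

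The LSm-named genes outside that ring act mainly in the cytoplasm or in other complexes. Of 6 tested, 1 was higher and 2 were lower in each genotype. The gene lsm1, whose protein replaces Lsm8 in the ring that promotes mRNA decay, measured 11.1, 8.78 and 11.55 CPM with DMSO and 9.97, 11.1 and 13.5 CPM with CPT in wild-type embryos. In mutants lsm1 measured 10.5, 8.28 and 14.2 CPM with DMSO and 16.1, 14.1 and 13.5 CPM with CPT. The treatments overlapped, with log2 fold changes of 0.14 (SE 0.18, adjusted p = 0.509) and 0.41 (SE 0.182, adjusted p = 0.0554). The 2 copies of lsm12 moved apart. The gene lsm12b measured 135, 159 and 140.2 CPM with DMSO and 86.6, 76.9 and 70.7 CPM with CPT in wild-type embryos. In mutants lsm12b measured 126, 155 and 169.8 CPM with DMSO and 80.5, 86.9 and 80.3 CPM with CPT. Every CPT library was lower than every DMSO library, at -0.89 (SE 0.113, adjusted p = 1.01e-06) and -0.86 (SE 0.113, adjusted p = 1.65e-06).

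The copy lsm12a, at few counts, measured 6.14, 8.43 and 9.21 CPM with DMSO and 9.80, 7.51 and 9.04 CPM with CPT in wild-type embryos, with overlap. In mutants lsm12a measured 5.52, 5.52 and 6.24 CPM with DMSO and 7.63, 12.04 and 10.8 CPM with CPT, without overlap. It was called in mutants only, at 0.81 (SE 0.196, adjusted p = 0.00139) against 0.14 (SE 0.188, adjusted p = 0.532). The ratio of lsm12a to lsm12b counts was 0.0455 to 0.0657 with DMSO and 0.0976 to 0.128 with CPT in wild-type embryos. In mutants it was 0.0355 to 0.0438 with DMSO and 0.0948 to 0.138 with CPT. The log2 ratio was 1.35 higher with CPT, with no overlap of treatments (two-sided exact permutation test within genotypes, p = 0.005, the smallest the relabelings can give; 0.0075 adjusted over the 3 pairs).

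The LSm14 proteins are components of P bodies, where mRNA is stored or broken down. The gene lsm14aa measured 55.5, 60.9 and 49.0 CPM with DMSO and 70.1, 63.2 and 53.5 CPM with CPT in wild-type embryos. In mutants lsm14aa measured 62.2, 53.5 and 55.4 CPM with DMSO and 64.5, 53.8 and 64.8 CPM with CPT. The treatments overlapped, at 0.17 (SE 0.118, adjusted p = 0.211) and 0.10 (SE 0.119, adjusted p = 0.483). Its copy lsm14ab was called higher in wild-type embryos (0.28, adjusted p = 0.0125), though not under library totals (0.05, 0.679), and not in mutants (0.03). The ratio of the copies ranged from 0.259 to 0.333 in wild-type and from 0.242 to 0.310 in mutant libraries, and its log2 difference with CPT, -0.02, did not pass (two-sided exact permutation test, p = 0.79). The gene lsm14b, at the lowest counts of the tested members, measured 2.06, 2.03 and 1.44 CPM with DMSO and 0.767, 0.629 and 1.00 CPM with CPT in wild-type embryos, without overlap. In mutants lsm14b measured 1.103, 2.54 and 2.49 CPM with DMSO and 0.943, 1.42 and 1.25 CPM with CPT, with overlap. It was called lower in both, at -1.18 (SE 0.345, adjusted p = 0.00577) and -0.80 (SE 0.341, adjusted p = 0.0474). The mutant call was lost with DESeq2 (0.0667), limma-voom (0.073), DESeq2-type size factors (0.0533), no filter on low counts (0.0603), a replicate block (0.0608) and only the groups compared (0.0663). It was also lost without wild-type DMSO library 1, 2 or 3, wild-type CPT library 1 or 2, mutant DMSO library 2 or 3 or mutant CPT library 1 or 3 (0.0501 to 0.184).

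Loss of miR-34a changed no spliceosome gene past the threshold of the edgeR test. With DMSO, 0 of 42 members were called between mutants and wild-type embryos, against 0.598% of all genes. An unadjusted p under 0.05 was found for 4 of the 42 members and for 1397 of all 11866 genes. DESeq2 called 1 member and limma-voom 0, against 1.54% and 0.548% of all genes. The members' median was 0.06, and that of all genes 0.01. The libraries of 7 members lay higher in mutants without overlap and those of 0 lower, against 9.10% and 7.96% of all genes. The member nearest to a call was prpf39, at 0.41 (SE 0.111, adjusted p = 0.105), whose mutant DMSO libraries were all above the wild-type ones. DESeq2 called it (adjusted p = 0.0253), as did edgeR once DMSO library 1 of the wild-type group was left out (0.51, adjusted p = 0.0286). Both settings called more of all genes, 1.54% and 1.63%, against 0.598% for edgeR with all libraries.

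With CPT, 0 of 42 members were called between genotypes by edgeR, against 3.29% of all genes. An unadjusted p under 0.05 was found for 8 of the 42 members and for 2254 of all 11866 genes. Of all genes, 1.13% were called higher and 2.16% lower in mutants. DESeq2 and limma-voom called 1 member each, against 5.71% and 3.14% of all genes. The median was 0.03, and that of all genes 0.01. Without overlap, 6 members were higher and 5 lower in mutants, against 10.6% and 12.2% of all genes. With wild-type CPT library 3 left out, 3 members were called higher and 1 lower. That setting called 8.72% of all genes, 40.1% of them higher. The member rises included lsm6 (0.48, adjusted p = 0.0127) and sf3b6 (0.49, 0.0137), and the fall was prpf6 (-0.36, 0.0187). Library totals called 7 members higher and 0 lower. Under that scaling 10.1% of all genes were called, 91% of them higher, and the median of all genes shifted to 0.20.

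The CPT response itself was not shown to differ between genotypes for any member. The interaction term called 0 of 42, against 0.160% of all genes. DESeq2 and limma-voom also called 0 members, against 2.13% and 0.16% of all genes. An unadjusted p under 0.05 in edgeR was found for 10 of the 42 members and for 1797 of all 11866 genes. The largest differences, mutant minus wild-type, were 0.67 for lsm12a (adjusted p = 0.249), 0.53 for lsm5 (0.242), -0.51 for prpf39 (0.126) and 0.48 for sf3b6 (0.191). The standard error of this difference had a median of 0.158 over the members, so that the median half-width of its 95% interval was 0.33 on the log2 scale. Members called in 1 genotype alone are therefore not shown to respond differently.

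Spliceosome genes outside the name rule also moved in both directions with CPT. Of 74 listed proteins of the U1, U2, U5, Prp19, second-step and U11/U12 groups, 67 were in the table and 64 were tested. In wild-type embryos 24 were higher and 14 lower (59.4% called), with a median of 0.14. In mutants 17 were higher and 22 lower (60.9%), with a median of -0.04. Over all genes tested the shares called were 60.8% and 60.2%. Under library totals the wild-type counts were 9 higher and 25 lower, and the mutant counts 14 and 23. In both genotypes cwc22, cwc27, aqr and ctnnbl1 had the smallest p among the falls. The gene cwc22, whose protein helps to place the exon junction complex on spliced mRNA, measured 114, 121 and 114 CPM with DMSO and 37.8, 35.3 and 34.9 CPM with CPT in wild-type embryos. In mutants cwc22 measured 130.1, 138 and 138 CPM with DMSO and 40.9, 44.6 and 34.8 CPM with CPT. Every CPT library was far below every DMSO library, at -1.69 (SE 0.1, adjusted p = 1.9e-11) and -1.75 (SE 0.101, adjusted p = 1.32e-11). The cyclophilin gene cwc27 fell by 2.21 and 1.88 on the log2 scale. The intron-binding helicase gene aqr fell by 1.55 and 1.90, and ctnnbl1, for a Prp19-associated protein, by 1.41 and 1.63. These 4 falls are larger than that of any member, and each passed in both genotypes.

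Among rises, the listed genes with the smallest p in wild-type embryos were sf1, for the branch-point binding protein (0.78), puf60b, for a protein that binds pyrimidine tracts with U2AF (0.76), and luc7l3 and luc7l, for relatives of a yeast U1 protein (0.64 and 0.56). In mutants they were zmat5 and zcrb1, for proteins of the U11/U12 snRNP that serves minor introns (0.93 and 0.78), txnl4a, for a U5 protein (0.70), and snu13b, for a U4 protein (0.64). Of these 8, sf1, luc7l, zmat5, zcrb1 and snu13b were called higher in both genotypes. The sf1 call in mutants was lost without mutant DMSO library 2 or 3 (adjusted p = 0.0795 and 0.0662) and under library totals (0.0822). The wild-type zcrb1 call was lost under library totals (0.121). Counts close to 0 were also listed for snrnp200 (10 counts in all libraries together), ddx23 (7) and ppil2 (4).

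Genes that assemble snRNPs were listed as well. Of 16 listed genes of the SMN complex, the methylosome and the Cajal body, 13 were tested. In wild-type embryos 6 were higher and 0 lower, with a median of 0.31 (46.2% called, against 60.8% of all genes). In mutants 7 were higher and 2 lower, with a median of 0.30 (69.2% called, against 60.2%). Of all genes, 29.1% were higher and 31.8% lower in wild-type embryos, and 28.5% and 31.7% in mutants. Under library totals 4 were higher and 3 lower in wild-type embryos, and 6 and 2 in mutants, where rises made up 29.7% and 42.5% of the calls over all genes. The gene coil, for the Cajal body protein coilin, measured 32.5, 23.3 and 22.6 CPM with DMSO and 43.1, 44.6 and 54.4 CPM with CPT in wild-type embryos. In mutants coil measured 29.1, 32.2 and 37.7 CPM with DMSO and 57.2, 67.6 and 59.0 CPM with CPT. Its CPT libraries were all above its DMSO libraries, at 0.86 (SE 0.141, adjusted p = 2.57e-05) and 0.89 (SE 0.141, adjusted p = 1.7e-05). The SMN complex genes gemin4 (0.93 and 0.96), gemin7 (0.80 and 0.91) and strap (0.81 and 0.70) rose in both genotypes. The methylosome genes wdr77 (-0.68, adjusted p = 0.00108) and clns1a (-0.30, 0.00976), whose proteins act in Sm protein methylation, fell in mutants. The clns1a call was lost without mutant CPT library 3 (0.0671).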

How the data were processed

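Polyadenylated RNA of 12 embryo pools (RNA integrity number 8 or more, per the labels' protocols) was sequenced on an Ion Proton. The authors deposited unnormalised whole-number counts of reads for each gene symbol. Their tools, per the submitters' processing notes, included HTSeq 0.9.1, STAR 2.7, Trim Galore 0.4.4, Picard 2.5.0 and Bowtie2, with danRer11 as the build. Which annotation was used, whether strand was counted and how reads with several alignments were handled is not given in the sources used here, so counts of near-identical copies and of overlapping or antisense genes are uncertain.

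Counts were tested with edgeR 4.0.16 in R 4.3.3: filterByExpr by group, TMM factors, and 1 robust quasi-likelihood model with a mean for each of the 4 groups (8 residual degrees of freedom, no replicate block). The 5 contrasts were CPT against DMSO in each genotype, mutant against wild-type in each treatment, and the interaction. P-values were Benjamini-Hochberg adjusted over the 11866 genes tested, and a call needed an adjusted p under 0.05 with no fold limit. A standard error is the fold change on the log2 scale divided by the root of F, and 95% intervals use the t distribution on the test's degrees of freedom. The test was checked on simulated data in which few genes changed, as many up as down. That check cannot show which library scaling holds for the embryo libraries. Every replicate pair differed beyond sampling noise, with a chi-square per degree of freedom of 7.64 to 65.6. The highest values, 65.6 and 38.0, were those of wild-type CPT library 3 against libraries 1 and 2 of its group. Libraries 1 and 2 of that group gave 20.3. Depth by group was 20.2 to 22.8 M (wild-type DMSO), 20.3 to 27.9 M (wild-type CPT), 15.0 to 22.4 M (mutant DMSO) and 13.5 to 21.7 M counts (mutant CPT).

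The named genes are the 6 largest called rises and falls of each CPT contrast, a fixed set, the 3 members with the most and the 3 with the fewest counts, and, from each of the 2 companion lists, up to 4 called genes per direction by p. Other genes were named after their values were seen. The fixed set was snrpa, snrpb, snrpd1, snrpe, snrpa1, sf3a1, sf3b1, sf3b4, u2af1, u2af2a, u2af2b, prpf8, prpf3, prpf31, prpf19, lsm1, lsm2, lsm7 and lsm14aa. Of these, sf3b1 and lsm2 had no row in the count table. Members, lists and roles were chosen with earlier results of these data known. Alternatives were DESeq2 1.42.0, limma-voom (limma 3.58.1), DESeq2-type size factors, library totals, no filter, a replicate block, the compared groups only, and each library left out. Coordinates, sequences and protein lengths were not used here. Counts and medians cover all members, but 1 tested member is not reported here on its own and is left out of the plots.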

Additional observations from a re-analysis of the deposited data

How the results depend on the processing

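In wild-type embryos, 10 of 20 member calls with CPT passed under all 19 alternatives, and in mutants 20 of 26. Genes such as snrpa, snrpe and sf3b5 (higher) and prpf6, sf3b2 and lsm12b (lower) passed in both genotypes under all of them, and no call reversed. Leaving out 1 library at a time gave 11 to 18 rises and 5 to 6 falls in wild-type embryos, and 15 to 19 and 7 to 10 in mutants. Between genotypes it gave 0 to 1 higher and 0 to 0 lower with DMSO, 0 to 3 higher and 0 to 1 lower with CPT, and 0 to 1 higher and 0 to 0 lower for the interaction. Under library totals there were 5 wild-type rises in place of 14, 9 wild-type falls in place of 6 and 15 mutant rises in place of 16. That scaling also called 7 members higher in mutants with CPT in place of 0. The median of all genes shifted with it too, and the cause of that shift was not tested. DESeq2-type size factors gave 18 rises and 6 falls in wild-type embryos and 19 rises and 8 falls in mutants. With them, edgeR also called snrpb, snrpf, sf3a2 and sf3a3 higher in wild-type embryos (adjusted p = 0.0353 to 0.0485). In mutants it added snrpc, lsm1 and lsm6 (0.0349 to 0.0435). Rises then made up 49.6% and 49.1% of the calls over all genes, in place of 47.8% and 47.3%. DESeq2 called 1 member higher between genotypes with DMSO and 1 with CPT, and limma-voom 1 with CPT. Of all genes, DESeq2 called 1.54% with DMSO and 5.71% with CPT, and limma-voom 3.14% with CPT. The cause of these added member calls was not tested. The replicate numbers did not pair the samples: 3 of 18 same-numbered pairs correlated over 0.1 (range -0.158 to 0.232), and 4 of 12 libraries correlated best with their own number. With the replicate block 1 member was called higher between genotypes with CPT, where the block called 4% of all genes. Of the CPT calls, 19 of the 20 wild-type and 25 of the 26 mutant ones were shared. Of 3074 uncalled results under alternatives, 89 became calls. Depth limits lsm14b most, with as few as 13 counts in a library.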

Other observations

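Of the companion lists, 4 genes were called between genotypes in CPT-treated embryos. They were 3 of 64 tested spliceosome genes (4.69%) and 1 of 13 tested assembly genes (7.69%), against 3.29% of all genes. The interaction called 1 of the 64 (1.56%) and 0 of the 13, against 0.160% of all genes. These shares were not tested against each other. The paralogs puf60a and puf60b, whose proteins bind pyrimidine tracts with U2AF, were lower in mutants than in wild-type embryos with CPT. With DMSO their means were higher in mutants, at 223 against 192 CPM for puf60a and 289 against 234 CPM for puf60b. Neither DMSO difference was called, and the genotypes overlapped. For puf60b the wild-type libraries measured 268, 223 and 210.4 CPM with DMSO and 365, 403 and 419.8 CPM with CPT. The mutant libraries measured 267, 310.2 and 288 CPM with DMSO and 284, 302 and 279.8 CPM with CPT. Wild-type libraries thus separated by treatment and mutant libraries overlapped. The difference between the genotypes' CPT responses was -0.76 on the log2 scale (adjusted p = 0.0366), and the difference between mutants and wild-type embryos with CPT was -0.46 (adjusted p = 0.0249). The interaction passed in 10 of 18 alternatives and was lost under library totals (adjusted p = 0.0939) and without wild-type DMSO library 2 or 3, wild-type CPT library 2, mutant DMSO library 2 or mutant CPT library 1, 2 or 3 (0.1 to 0.168). For puf60a the difference with CPT was -0.37 (adjusted p = 0.0322), and its interaction did not pass (-0.59, adjusted p = 0.069). With CPT it was called higher in wild-type embryos (mean 192 to 232 CPM) and lower in mutants (223 to 179 CPM), both without overlap. The wild-type call was lost under library totals (0.04, adjusted p = 0.727) and without wild-type DMSO library 2 (0.0599).

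The SF3b subunit gene phf5a, which the name rule does not take, was higher in mutants with CPT by 1.15 on the log2 scale (adjusted p = 0.0322), from counts of only a few CPM. It measured 2.24, 2.697 and 2.31 CPM in wild-type CPT and 3.32, 6.76 and 6.24 CPM in mutant CPT libraries. With DMSO phf5a measured 2.06, 1.68 and 1.32 CPM in wild-type and 1.78, 3.50 and 3.55 CPM in mutant libraries. Its mean was thus higher in mutants with DMSO too (2.94 against 1.69 CPM), though that difference was not called. The SMN complex gene gemin8 was higher by 0.73 (adjusted p = 0.028), at 5.25, 5.84 and 6.92 CPM in wild-type CPT and 10.2, 10.5 and 9.33 CPM in mutant CPT libraries. With CPT the genotypes did not overlap for either gene, and with DMSO they overlapped for both. The 4 calls between genotypes with CPT passed in 13 or 14 of 19 alternatives, and each was lost on leaving out some single libraries. The phf5a call was lost without wild-type CPT library 1 or 2 or mutant CPT library 2 or 3 (adjusted p = 0.0856 to 0.148), and the gemin8 call without wild-type CPT library 1 or 2 or mutant CPT library 1, 2 or 3 (0.0691 to 0.119). The puf60a call was lost without wild-type CPT library 1 or 2 or mutant CPT library 1, 2 or 3 (0.072 to 0.123), and the puf60b call without wild-type CPT library 2 or mutant CPT library 1, 2 or 3 (0.0731 to 0.106). Under library totals neither puf60a (-0.18, adjusted p = 0.222) nor puf60b (-0.27, 0.116) was called. The phf5a call was also lost with limma-voom (0.0628) and with only the groups compared (0.0525), and the gemin8 call with only the groups compared (0.0525).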
